A study of Mus musculus with 4 samples.

Results

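The interferon regulatory factors examined here are Irf1, Irf2, Irf3, Irf4, Irf5, Irf7, Irf8 and Irf9, 8 of the 19938 genes that the array platform names. A probe set was taken when the platform gave it exactly 1 of these symbols, which gave 9 probe sets. Irf1 had 2 of them, and the one with the higher mean over the 4 arrays was used. All 8 genes passed the filter on dim genes, with values above the 30th percentile of all probe sets on 4 of 4 arrays.

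Expression was measured in bone marrow cells of C57BL/6J mice after 7 days of culture, on 2 arrays per group and 4 in all. The first group received GM-CSF, the colony-stimulating factor of granulocytes and macrophages, was named M1 by the submitters, and was sorted by flow cytometry for CD45, MHC class II and F4/80 and against CD8a. The second group was grown with M-CSF (macrophage colony-stimulating factor), given as 20% L929 cell supernatant, was named M2, and was sorted for CD45, F4/80 and CD11b. No interferon or microbial stimulus is named in the labels for either group, and medium with 10% fetal bovine serum was common to both. Growth factor, L929 supernatant and sort gate changed together, so their parts in any difference cannot be told apart. The submitters describe the GM-CSF cultures as mixed before the sort. In such bulk samples, fewer cells of a type and less RNA per cell cannot be told apart either.

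Interferon regulatory factors are transcription factors that share a DNA-binding domain and recognise GAAA repeats. Irf3 and Irf7 are activated by kinases downstream of nucleic acid sensors and switch on type I interferon genes. Irf9 is the DNA-binding subunit of the complex that carries the type I interferon signal to the nucleus. Irf1 and Irf2 bind the same sites, Irf1 mostly as an activator and Irf2 often as a repressor. Irf5 drives inflammatory cytokine genes in macrophages. Irf4 and Irf8 bind DNA weakly alone and work with partners such as PU.1 (encoded by Spi1) or Batf, and both direct the development of dendritic cells and macrophages. The factors are also controlled as proteins, by phosphorylation and movement to the nucleus, which an RNA measurement does not show.

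Values are RMA log2 expression values, on which 1 unit is a 2-fold step, and differences are GM-CSF minus M-CSF. A gene is called here when its Benjamini-Hochberg adjusted p from limma, fitted over 14995 genes, is under 0.05. The value after ± is the standard error (SE) from limma, which draws partly on the spread of all genes. Levels of different genes are not set against each other, because probe sets differ in how strongly they bind. Replicates were tighter in the M-CSF group (SD of the replicate difference across genes, 0.18 against 0.325 for GM-CSF), and 226 genes were at least 2-fold apart within the GM-CSF pair against 7 within the M-CSF pair. Nothing in the labels ties the replicates to separate animals or cultures. The GM-CSF arrays differed in Xist, which coats the inactive X chromosome, at 11.58 in replicate 1 and 4.93 in replicate 2, where the M-CSF arrays had 4.53 and 4.80. Eif2s3y, a gene of the Y chromosome, read 3.66 and 9.10 in the GM-CSF arrays and 9.32 and 9.17 in the M-CSF arrays. GM-CSF replicate 1 thus had the pattern of female mice and the other 3 arrays that of male mice, so the GM-CSF pair came from different animals. Whether the M-CSF pair did is not given, and its spread may be technical. Sex lies along the gap within the GM-CSF pair, and there sex and replicate cannot be told apart. Because both M-CSF arrays had the male pattern, sex was also unbalanced between the groups, and its part in their differences was not tested. H2-Aa, an MHC class II chain and thus part of the gate, read 10.25 and 11.45 in the GM-CSF group and 6.37 and 6.11 in the M-CSF group. The 9 macrophage markers tested, Adgre1, Csf1r, Mertk, Fcgr1, Cd68, Lyz2, Itgam, Ptprc and Cd14, were above background in both groups, from 9.83 (Cd14 in M-CSF replicate 1) to 13.31 (Lyz2 in GM-CSF replicate 1). Of these 1 was called, Cd14, at 11.45 and 11.57 in the GM-CSF group and 9.83 and 9.87 in the M-CSF group, and 8 did not pass.

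Irf4 was higher in the GM-CSF cells, and the other 7 factors did not pass the test. That is 12.5% of the 8 factors, and 10.7% of all genes tested were called in either direction (6.18% higher, 4.53% lower), so the count alone does not set the family apart. At an unadjusted p under 0.05 in limma, 4 of the 8 passed (Irf1, Irf2, Irf4 and Irf5), all of them with positive differences. Over all genes tested 25.5% passed that threshold, 12.9% with positive differences. The median difference over the 8 factors was 0.32, against -0.01 over all genes tested. For Irf1, Irf2, Irf4 and Irf5 both GM-CSF arrays lay above both M-CSF arrays, and for Irf3 both lay below. For Irf7, Irf8 and Irf9 the groups overlapped. Arrays of the groups did not overlap for 55.4% of all genes tested, 26.3% with GM-CSF above and 29.1% with GM-CSF below. With 2 arrays against 2, an exact permutation test of a single gene cannot go below p = 0.333, so the calls rest on limma, which borrows its estimate of spread from all genes.

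**Figure D1:**
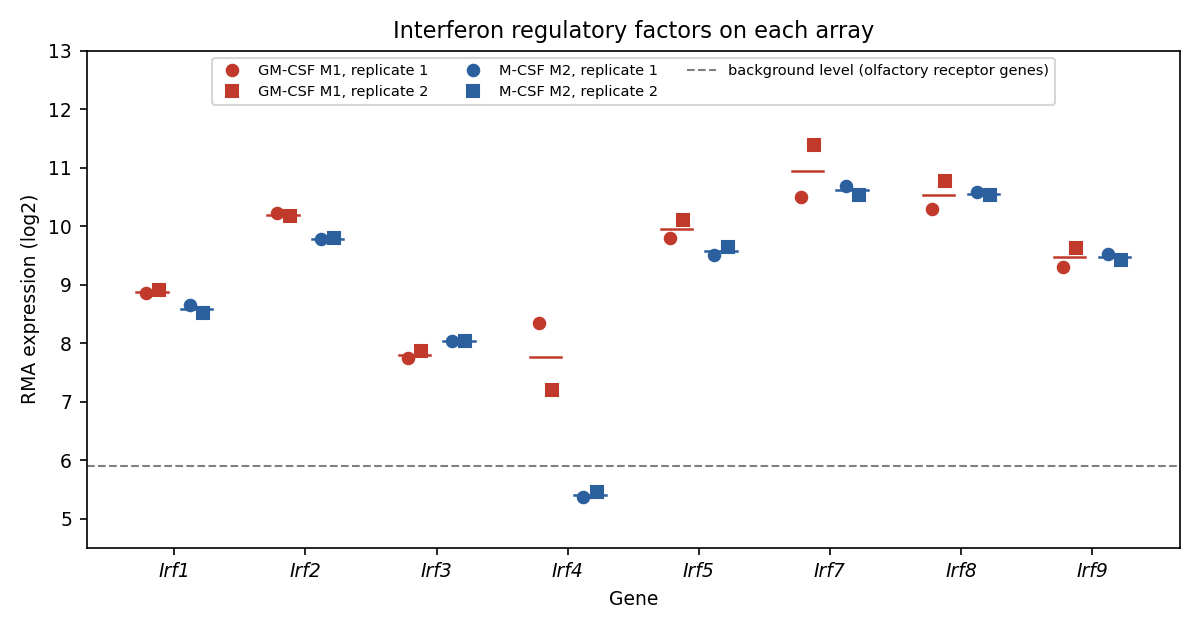
RMA expression (log2, vertical axis) of the 8 factors on each array, with circles for replicate 1, squares for replicate 2, red for GM-CSF M1, blue for M-CSF M2 and short lines for group means. Irf4 is the factor whose M-CSF arrays (5.36 and 5.45) lie under the dashed background level of 5.90, and the GM-CSF arrays of Irf4 (8.34 and 7.19) and Irf7 (10.50 and 11.38) lie farthest apart.

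Irf4 acts in dendritic cells, in alternatively activated macrophages and in lymphocytes. It read 8.34 and 7.19 in the GM-CSF arrays and 5.36 and 5.45 in the M-CSF arrays. Both GM-CSF arrays were above both M-CSF arrays, and the GM-CSF arrays were themselves 1.15 apart, with replicate 1 the higher. The difference was 2.36 ± 0.34 (SE from limma, n = 2 per group), a 5.13-fold higher level in GM-CSF cells. Its 95% interval ran from 1.52 to 3.19, with an adjusted p of 0.0097 (limma). The SD of the Irf4 values themselves was 0.81 in the GM-CSF pair and 0.06 in the M-CSF pair. The difference of Irf4 was large beside those of most genes. It ranked 152 among the 14995 genes by absolute difference. The M-CSF values lay under the background level of 5.90, which is the mean over the arrays of the 95th percentile of 1027 olfactory receptor genes. The M-CSF level of Irf4 was therefore not distinguishable from background, and the fold depends on that background. Set against 5.90 instead of the M-CSF mean, the GM-CSF mean of 7.77 was 3.64-fold higher. The call was lost without M-CSF replicate 1 (adjusted p = 0.15, limma), without M-CSF replicate 2 (0.145) and with trended and robust variances (0.0646). The difference itself was 1.78 with GM-CSF replicate 1 left out and 2.93 with replicate 2 of that group left out.

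**Figure D2:**
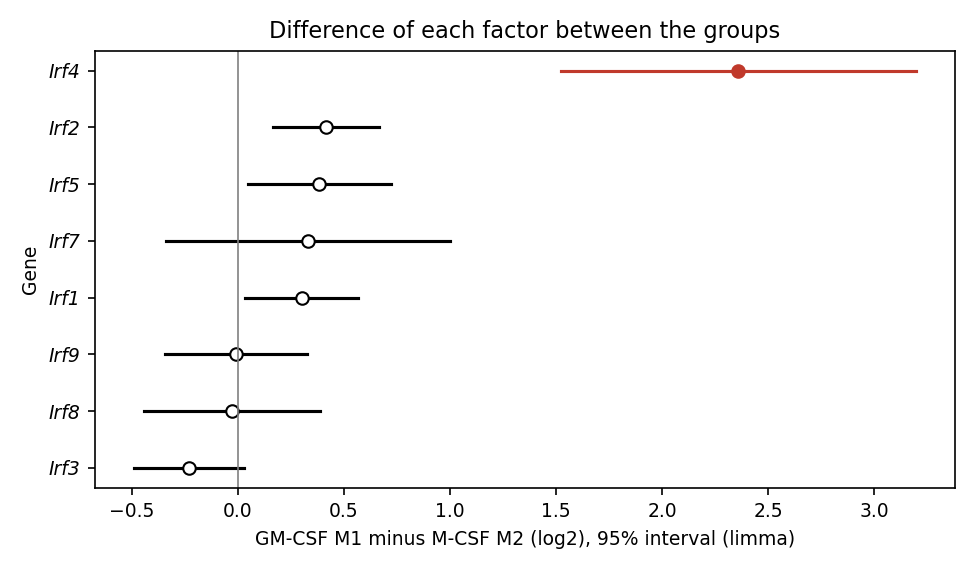
GM-CSF M1 minus M-CSF M2 difference of each factor (log2, horizontal axis) with its 95% interval from limma, filled red for the factor that passed the test and open for those that did not. The interval of Irf4 runs from 1.52 to 3.19, and those of Irf7, Irf8, Irf9 and Irf3 include 0.

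The 250 bases upstream of the RefSeq start site of Irf4 are shown because Irf4 is the factor that was called. In RefSeq build GRCm38.p6 they are chr13:30748983-30749232 on the plus strand, with the TATAAA match in capitals.
Irf4: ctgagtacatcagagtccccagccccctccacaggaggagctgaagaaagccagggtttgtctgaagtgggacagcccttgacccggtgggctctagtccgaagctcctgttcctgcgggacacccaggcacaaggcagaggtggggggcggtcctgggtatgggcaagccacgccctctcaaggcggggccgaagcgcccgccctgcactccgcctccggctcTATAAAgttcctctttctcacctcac
The TATAAA letters start 26 bases before the start site. In the 300-base window around the start site, no match was found to the interferon-stimulated response element (ISRE, GAAA, any 2 bases, GAAA), the STAT site (GAS, TTCNNNGAA), the site shared by PU.1 and Irf4 or Irf8 (EICE, GGAA, any 2 bases, GAAA) or the kB site.

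The genes whose 4 values most resembled those of Irf4, after each gene was centred on its own mean, were Ch25h, Upp1 and Il1rn, at Euclidean distances of 0.21, 0.29 and 0.29 log2 units over 4 arrays. Ch25h encodes cholesterol 25-hydroxylase and read 8.21 and 7.33 in GM-CSF cells against 5.26 and 5.46 in M-CSF cells. Upp1 encodes uridine phosphorylase and read 9.91 and 8.59 against 6.58 and 6.66. Il1rn encodes the interleukin-1 receptor antagonist and read 11.50 and 10.71 against 8.82 and 8.71. These genes were picked because their values lie near those of Irf4, so the features they share with it follow from that choice. In all of these replicate 1 was the higher GM-CSF array. All were called (adjusted p = 0.00432, 0.0102 and 0.00318, limma), and all lost the call without M-CSF replicate 1 (0.102, 0.154 and 0.0774) and without M-CSF replicate 2 (0.0878, 0.151 and 0.0875). Upp1 also lost it with trended and robust variances (0.0976).

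Because Irf4 is also expressed by dendritic cells, B cells and plasma cells, markers of these cells are given beside it. Of 10 conventional dendritic cell markers tested, 3 were higher in GM-CSF cells (Itgax, Clec9a and Ccr7), 0 were lower and 7 did not pass. Of the 3, Clec9a missed the threshold with M-CSF replicate 1 left out (adjusted p = 0.0603, limma) or replicate 2 left out (0.0742), and Ccr7 with replicate 1 left out (0.0945). The summed level of the 10, on the log2 scale, was 11.32 and 10.72 in the GM-CSF arrays and 9.06 and 9.10 in the M-CSF arrays. In the GM-CSF arrays that sum rests largely on Itgax (10.72 and 10.05, against 6.01 and 5.71 in M-CSF cells). Both GM-CSF arrays lay above both M-CSF arrays for 5 of the 10 markers and below them for 3. Over all genes tested those shares were 26.3% and 29.1%. Zbtb46, a transcription factor of these cells, read 6.01 and 6.32 in GM-CSF cells against 5.93 and 5.91 in M-CSF cells. Flt3, their growth factor receptor, was under the background level on all 4 arrays, between 4.93 and 5.44. Of the 7 B cell and plasma cell markers on the array, Cd79a, Ms4a1, Ebf1, Jchain and Blk had group means under background in both groups, and Cd79b was lower in GM-CSF cells (7.69 and 7.95 against 10.16 and 10.21, adjusted p = 0.000326, limma). The seventh, Pax5, lay near background, between 5.85 and 6.02. The summed level of the 7 was 8.67 and 8.84 in GM-CSF cells against 10.42 and 10.48 in M-CSF cells, a sum that rests on Cd79b. The part of dendritic cells in the Irf4 difference was not tested.

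Genes tied to Irf4 in macrophages and dendritic cells were measured from a list of 14, of which 13 passed the filter. Of these, 5 were higher in GM-CSF cells, 1 was lower and 7 did not pass, with a median difference of 0.89. Over all genes tested, 6.18% were higher, 4.53% were lower and the median difference was -0.01. The counts of the lists below stand beside the same shares. Within the Irf4 list, the larger differences were in Chil3 and Arg1. Chil3, a chitinase-like secreted protein, read 9.40 and 8.27 in GM-CSF cells against 5.48 and 5.08 in M-CSF cells. Arg1, arginase 1, read 9.23 and 8.67 against 5.35 and 5.43 (difference 3.55 ± 0.19, adjusted p = 0.000326, limma). Pdcd1lg2, which encodes PD-L2, read 8.38 and 6.85 against 5.53 and 5.48. Ccl22, a chemokine of activated dendritic cells, read 7.56 and 6.41 against 5.45 and 4.94. For these 4 genes both M-CSF values were under background. Prdm1, a transcriptional repressor, was also higher, at 8.12 and 8.44 against 7.60 and 7.18. Il4ra, the interleukin-4 receptor chain, was lower, at 10.36 and 10.24 against 11.23 and 11.08. Kdm6b, a histone demethylase known to act upstream of Irf4, did not pass (-0.32 ± 0.10, adjusted p = 0.108, limma).

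Several of these genes differed between the GM-CSF arrays in the same direction as Irf4. Ccl17, a chemokine that needs Irf4 in monocyte-derived cells, read 10.74 and 6.74 in GM-CSF replicates 1 and 2 and 5.99 and 5.94 in the M-CSF arrays. Mgl2, a lectin of alternatively activated macrophages, read 9.47 and 5.87 in the GM-CSF arrays and 5.91 and 6.27 in the M-CSF arrays. In GM-CSF replicate 1 both genes stood far above the other 3 arrays, and neither passed the test (adjusted p = 0.197 and 0.419, limma). Of the 13 genes, 10 were higher in replicate 1 and 3 in replicate 2, while 56.0% of all genes tested were higher in replicate 2. The median of replicate 2 minus replicate 1 was -0.56, against 0.03 over all genes tested. Irf4 itself had -1.15, the 1 factor of the 8 that was at least 2-fold apart there, as 1.51% of all genes tested were, and 1.09% of all genes tested were at least as far apart. Fewer genes of the list were called without either M-CSF array. More were called without either GM-CSF array, whichever of the pair was left out, in fits that take their spread from the closer M-CSF pair. Markers of other cells differed within the same pair. The 8 neutrophil markers summed to 10.41 and 9.25 in GM-CSF replicates 1 and 2, and to 9.71 and 9.49 in the M-CSF arrays. In the GM-CSF arrays that sum rests largely on Ngp (9.02 and 7.02) and S100a8 (8.54 and 7.04). Of the 8 markers, 5 were higher in GM-CSF replicate 1 and 3 in replicate 2, and 5 had a GM-CSF mean above background. The 6 mast cell and basophil markers summed to 8.10 and 7.53, and to 7.63 and 7.54 in the M-CSF arrays. Of these 6, 1 had a group mean above background in each group, so that sum is mostly signal at or near background. Of the 10 conventional dendritic cell markers, 8 were higher in GM-CSF replicate 1 and 2 in replicate 2. Their median of replicate 2 minus replicate 1 was -0.41. The part of these cells, or of sex, in the Irf4 values was not tested.

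**Figure D3:**
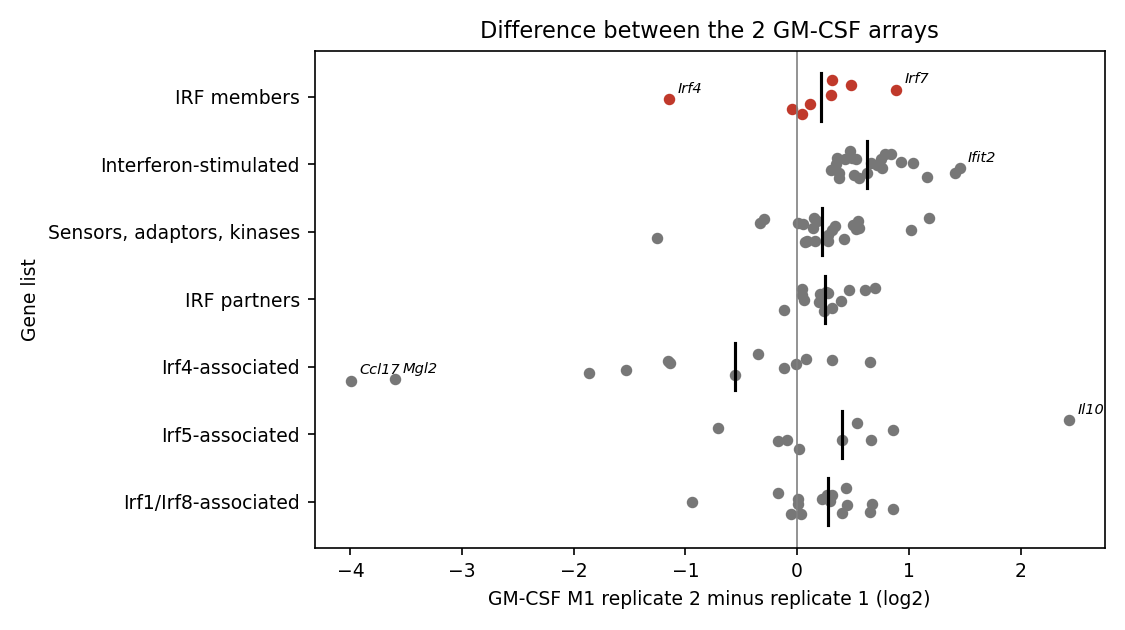
GM-CSF replicate 2 minus replicate 1 (log2, horizontal axis) for the 8 factors (red) and the tested genes of 6 lists (grey), with a black line at each median. The interferon-stimulated genes all lie to the right of 0 with a median of 0.62, and the Irf4-associated genes have a median of -0.56.

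Irf5, Irf2 and Irf1 had both GM-CSF arrays above both M-CSF arrays without passing the test. Irf5 is known to be induced by GM-CSF and to promote Il12 and Il23 genes in macrophages. It read 9.80 and 10.11 in GM-CSF cells against 9.50 and 9.64 in M-CSF cells. The groups were 0.38 ± 0.14 apart (SE, n = 2 per group; 95% interval from 0.05 to 0.72), a 1.305-fold level with an adjusted p of 0.149 (limma). Without GM-CSF replicate 1 the difference was 0.54 and passed (adjusted p = 0.0122, limma), in a fit that takes its spread from the M-CSF pair alone.

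Irf2 read 10.22 and 10.18 in GM-CSF cells against 9.78 and 9.79 in M-CSF cells. The arrays of each group were within 0.05 of each other, and both GM-CSF arrays were higher. The difference was 0.41 ± 0.10 (SE; 95% interval from 0.16 to 0.66), a 1.33-fold level, with an adjusted p of 0.0561 (limma), just above the threshold. It passed with the filter at the 50th percentile (0.0435) and with trended and robust variances (0.0391). It did not pass with no filter (0.0825) or with the replicate block (0.0795). With each array left out in turn, the difference ran from 0.39 to 0.44.

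Irf1 read 8.86 and 8.90 in GM-CSF cells against 8.65 and 8.51 in M-CSF cells. The difference was 0.30 ± 0.11 (SE; 95% interval from 0.04 to 0.57), a 1.23-fold level, with an adjusted p of 0.149 (limma). The other Irf1 probe set read 5.815 and 5.793 in GM-CSF cells against 5.824 and 6.09 in M-CSF cells, near the background level. There both GM-CSF arrays lay below both M-CSF arrays, opposite in direction to the probe set used. Averaged over both probe sets the difference was 0.07.

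Irf3, the factor activated by the cytosolic nucleic acid sensors, read 7.75 and 7.86 in GM-CSF cells against 8.04 in both M-CSF arrays. Both GM-CSF arrays were lower, and the difference of -0.23 ± 0.11 (SE; 95% interval from -0.49 to 0.03) did not pass (adjusted p = 0.245, limma).

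Irf8, which drives macrophage and dendritic cell development together with PU.1, read 10.29 and 10.77 in GM-CSF cells against 10.59 and 10.53 in M-CSF cells. Both M-CSF values fell between the GM-CSF values. The difference was -0.03 ± 0.17 (SE) with a 95% interval from -0.44 to 0.39 and an adjusted p of 0.95 (limma). The interval leaves out a 2-fold difference in either direction. Its sign depended on the arrays kept, at 0.21 without GM-CSF replicate 1, -0.27 without GM-CSF replicate 2 and 0.0031 without M-CSF replicate 1.

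Irf7 is itself an interferon-stimulated gene and amplifies the type I interferon response. It read 10.50 and 11.38 in the GM-CSF arrays and 10.69 and 10.54 in the M-CSF arrays. GM-CSF replicate 2 was the highest array and GM-CSF replicate 1 the lowest, so the groups overlapped. The difference was 0.33 ± 0.27 (SE; 95% interval from -0.34 to 0.998) with an adjusted p of 0.535 (limma). It was 0.77 without GM-CSF replicate 1, where it passed (adjusted p = 0.000841, limma), and -0.11 without GM-CSF replicate 2, and so the sign turned with which array of the pair stayed in. Over all genes tested, 2.03% were at least as far apart within the GM-CSF pair as Irf7.

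Irf9 read 9.31 and 9.62 in GM-CSF cells against 9.52 and 9.42 in M-CSF cells. Here too GM-CSF replicate 2 was the highest and GM-CSF replicate 1 the lowest array. The difference was -0.01 ± 0.14 (SE; 95% interval from -0.34 to 0.33, adjusted p = 0.979, limma), and its sign changed after quantile normalization (0.013).

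The interferon-stimulated genes, which Irf9 helps to switch on, also differed within the GM-CSF pair. Of 23 genes of this list that were measured and tested, all 23 were higher in GM-CSF replicate 2 than in replicate 1, against 56.0% of all genes tested. The median of replicate 2 minus replicate 1 was 0.62 in the GM-CSF pair and -0.11 in the M-CSF pair. Replicate 1 of the GM-CSF pair was the array with the female pattern, and the part of sex in these values was not tested. Mx1, an antiviral GTPase, read 7.95 and 9.36 in the GM-CSF arrays and 8.51 and 8.16 in the M-CSF arrays. Ifit2, an RNA-binding antiviral protein, read 9.20 and 10.65 against 10.36 and 10.23. The M-CSF values of both genes lay between the GM-CSF values, as they did for Irf7. Zbp1, a nucleic acid sensor that interferon induces, was the gene most like Irf7 over the 4 arrays (distance 0.05 log2 units), at 9.50 and 10.43 against 9.67 and 9.58. Mx1, Ifit2 and Zbp1 were chosen after their values were seen.

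Between the groups, 2 of the 23 interferon-stimulated genes were higher in GM-CSF cells, 0 were lower and 21 did not pass, with a median difference of 0.20. With 10.7% of all genes tested called in either direction, this count does not set the list apart. The 2 were Cxcl10, a chemokine for T cells, and Oas3, an activator of RNA decay. Cxcl10 read 9.37 and 9.75 in GM-CSF cells against 8.41 and 8.38 in M-CSF cells (difference 1.16 ± 0.15, adjusted p = 0.00618, limma). Oas3 read 10.09 and 10.81 against 9.47 and 9.33 (1.05 ± 0.23, adjusted p = 0.0392, limma). Isg20, an RNA exonuclease, had a difference of 0.86 ± 0.28 and did not pass (adjusted p = 0.121, limma). Leaving out GM-CSF replicate 1 left 16 genes of the list called, leaving out GM-CSF replicate 2 left 7, and leaving out either M-CSF array left 0. Adjusted p for Cxcl10 was then 0.108 without M-CSF replicate 1 and 0.119 without M-CSF replicate 2, and for Oas3 0.254 and 0.288 (limma). Oas3 also lost its call with trended and robust variances (0.0677) and with no filter (0.0502).

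Of the interferon genes on the array, none was called. Ifnb1, Ifna4, Ifna11, Ifne and Ifnk did not pass the filter on dim genes, and Ifnb1 read 4.93 and 5.08 in GM-CSF cells against 4.89 and 5.22 in M-CSF cells, under background on all 4 arrays. Among the 17 tested interferon, receptor and JAK-STAT genes, 4 were higher in GM-CSF cells, 0 were lower and 13 did not pass, with a median difference of 0.13. Jak2, the kinase shared by the GM-CSF and interferon gamma receptors, read 10.25 and 10.52 in GM-CSF cells against 8.59 and 8.39 in M-CSF cells (difference 1.896 ± 0.14, 3.72-fold, adjusted p = 0.000856, limma). Socs1, a feedback inhibitor of JAK kinases, read 9.59 and 8.91 against 7.30 and 7.41 (1.90 ± 0.22, 3.74-fold). Ifnlr1, a chain of the interferon lambda receptor, read 6.46 and 6.40 against 5.85 and 5.56, the latter under background. Ifnar2, a chain of the type I interferon receptor, read 11.62 and 11.53 against 11.11 in both M-CSF arrays (0.47 ± 0.10). Stat2, the partner of Irf9, read 10.03 and 10.71 in GM-CSF cells against 10.13 and 10.01 in M-CSF cells, and so was higher in GM-CSF replicate 2. It did not pass (0.30 ± 0.22, adjusted p = 0.48, limma). Without M-CSF replicate 1 or 2, Jak2 alone of the 4 kept its call. Adjusted p was then 0.103 and 0.0947 for Socs1, 0.0963 and 0.191 for Ifnlr1, and 0.278 and 0.27 for Ifnar2 (limma). Ifnar2 also missed the threshold with the replicate block (0.0592) and with no filter (0.0619).

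There were 22 tested sensors, adaptors and kinases that act on Irf3, Irf5 and Irf7. Of these, 1 was higher in GM-CSF cells, 0 were lower and 21 did not pass, with a median difference of 0.19. That is no larger a share than the 10.7% called over all genes tested. Sting1, the adaptor of cytosolic DNA sensing, read 10.52 and 10.19 in GM-CSF cells against 8.86 and 9.06 in M-CSF cells, a 2.64-fold higher level (difference 1.40 ± 0.15, adjusted p = 0.00333, limma). It lost the call without M-CSF replicate 1 (0.0811) and without M-CSF replicate 2 (0.0629). Tlr9, a DNA sensor of endosomes, read 8.89 and 9.91 against 10.26 and 10.43, with both GM-CSF arrays lower (-0.95 ± 0.31, adjusted p = 0.119, limma). Tlr9 passed with the replicate block (0.0462). Ikbke, a kinase that phosphorylates Irf3 and Irf7, read 10.42 and 10.97 against 11.36 and 11.34 (-0.66 ± 0.19, adjusted p = 0.0813, limma). Of the 22 genes, 19 were higher in GM-CSF replicate 2 than in replicate 1, against 56.0% of all genes tested. Among the 19 were the RNA sensor genes Ddx58 (10.69 and 11.25), Ifih1 (9.53 and 10.05) and Dhx58 (9.24 and 10.42), named after their values were seen.

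Of 14 partners and cofactors of the factors, 0 were higher in GM-CSF cells, 1 was lower and 13 did not pass, with a median difference of -0.05. This share, too, was no larger than the 10.7% called over all genes tested. Spi1, which encodes PU.1, read 11.47 and 11.74 in GM-CSF cells against 11.82 and 11.87 in M-CSF cells (-0.24 ± 0.13, adjusted p = 0.316, limma). Its relative Spib was the gene that was lower, at 5.29 and 5.61 against 6.42 and 6.48 (-0.99 ± 0.14, adjusted p = 0.00792, limma), with both GM-CSF values under background. It lost the call without M-CSF replicate 1 (0.118) and without M-CSF replicate 2 (0.136). Batf, which binds DNA together with Irf4 or Irf8, read 7.48 and 8.09 in GM-CSF cells against 8.66 and 8.57 in M-CSF cells, opposite in direction to Irf4. It did not pass (-0.83 ± 0.20, adjusted p = 0.053, limma), and it passed with arrays centred on their medians (0.0436), with array weights (0.0326) and with the replicate block (0.0449). Ikzf1, encoding the factor Ikaros, read 8.67 and 9.37 against 9.81 and 9.85 (-0.81 ± 0.22, adjusted p = 0.0761, limma). It passed with array weights (0.0477) and with the replicate block (0.0445). Irf2bp2, a corepressor that binds Irf2, read 9.53 and 9.57 against 9.09 and 9.15 (0.43 ± 0.10, adjusted p = 0.0517, limma), and Irf2 had 0.41.

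Several cytokine genes tied to Irf5 were higher in GM-CSF cells. Of 9 tested, 4 were higher, 0 were lower and 5 did not pass, with a median difference of 0.89. Il12a, the p35 chain of interleukin-12, read 8.81 and 8.64 in GM-CSF cells against 5.58 and 5.45 in M-CSF cells, the latter under background (3.22 ± 0.12, adjusted p = 0.000137, limma). Its partner chain gene Il12b read 5.95 and 6.80 against 5.36 and 5.62 and did not pass (0.89 ± 0.27, adjusted p = 0.103, limma). Il23a did not pass the filter on dim genes, between 4.90 and 5.05 on all 4 arrays, so no level of it was distinguishable from background. Il6 read 9.14 and 8.42 against 5.15 and 4.82, and Ccl5 12.04 and 12.57 against 9.04 and 9.05. The fourth was Il1b, at 11.52 and 11.54 against 8.91 and 8.70. Tnf read 10.49 and 11.16 against 10.70 and 10.77, with the M-CSF values between the GM-CSF values. Il10, which Irf5 is known to repress, read 5.34 and 7.77 in GM-CSF cells against 8.58 and 8.68 in M-CSF cells, and its difference of -2.08 ± 0.70 did not pass (adjusted p = 0.125, limma).

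The list of genes known to need Irf1 or Irf8 had 16 tested members, of which 5 were higher in GM-CSF cells, 1 was lower and 10 did not pass, with a median difference of 0.50. Cd74, the MHC class II invariant chain, was 13.9-fold higher, at 11.22 and 11.66 against 7.57 and 7.73. These cells were sorted for MHC class II protein, so its level is not independent of the gate. Nos2, inducible nitric oxide synthase, read 9.07 and 8.12 against 5.69 and 5.43, the latter under background. Ctss, the lysosomal protease cathepsin S, read 12.45 and 12.67 against 11.74 and 11.64. Cybb, a subunit of the NADPH oxidase, read 12.86 and 12.89 against 12.42 and 12.31. Il12a, above, was the other one. Ly86, which encodes the MD-1 protein of the RP105 receptor, was lower, at 10.87 and 11.13 against 11.54 and 11.62. Irf1 and Irf8 themselves had differences of 0.30 and -0.03.

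**Figure D4:**
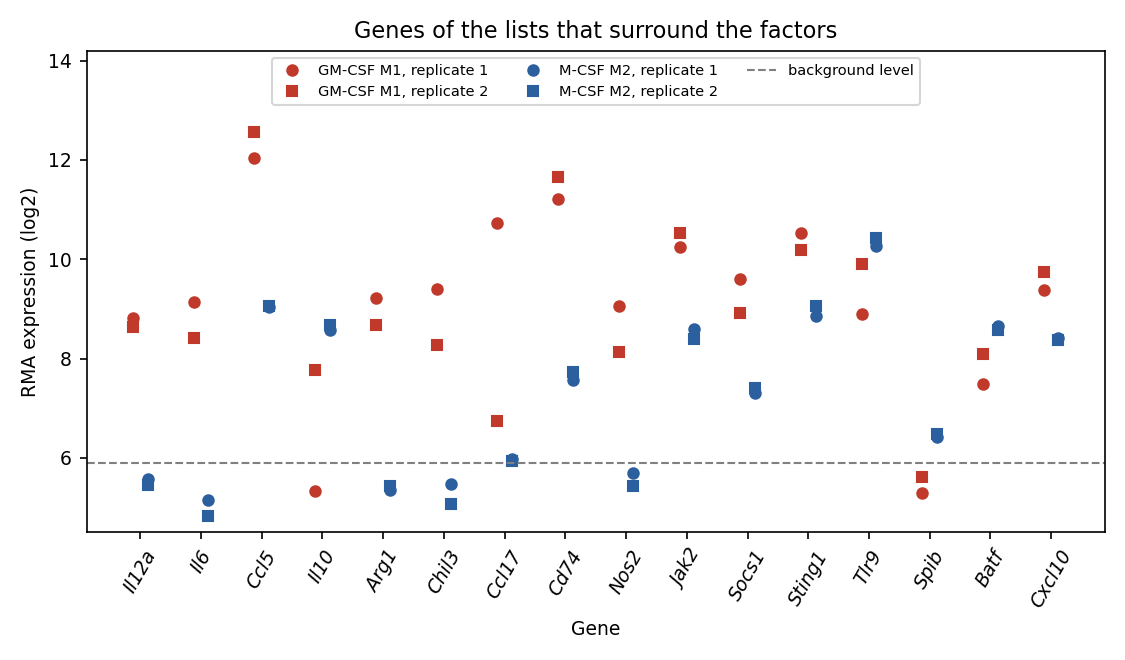
RMA expression (log2, vertical axis) of 16 genes from the lists around the factors on each array, marked as circles for replicate 1 and squares for replicate 2, red for GM-CSF M1 and blue for M-CSF M2. The M-CSF values of Il12a, Il6, Arg1, Chil3 and Nos2 lie under the dashed background level, and Ccl17 and Il10 show the widest gaps between the GM-CSF arrays.

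Over all genes tested, 6.18% were higher and 4.53% lower. Across the 7 lists, 110 distinct genes were tested and 20 were higher and 3 lower. Of these 23 called genes, 7 kept the call without M-CSF replicate 1 and without M-CSF replicate 2. They were Arg1, Ccl5, Cd74, Il12a, Il1b, Il6 and Jak2 in both fits. Those fits take their spread from the wider GM-CSF pair, and calls fell over all genes tested as well, both higher and lower. The loss is therefore not particular to the list genes. The other 16 lost the call in both, such as Nos2 (adjusted p = 0.06 and 0.0745, limma), Chil3 (0.0596 and 0.0772), Ctss (0.112 and 0.141), Cybb (0.199 and 0.267), Ly86 (0.247 and 0.284), Prdm1 (0.105 and 0.232), Il4ra (0.122 and 0.0953), Ccl22 (0.192 and 0.278) and Pdcd1lg2 (0.269 and 0.265). Ccl22 and Pdcd1lg2 lost theirs with trended and robust variances too (0.155 and 0.202), and Ly86 with no filter (0.0555).

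The promoters of the factors differed in the motifs they hold. RefSeq gave 11 start sites for the 8 factors in build GRCm38.p6, each with 250 bases before and 50 after it, and both strands were searched. The ISRE letters were in 1 of the 11 windows, that of Irf2, and in 3.44% of all 32851 promoter windows. The GAS letters were in 3 of the 11, 1 each for Irf1, Irf2 and Irf8, and in 8.3% of all windows. The kB site was in 2 of the 11 (Irf1 and Irf2) and in 8.46% of all. In the Irf2 window the EICE letters, found in 2.72% of all windows, overlap the ISRE. For comparison, 12 of 23 windows of 19 interferon-stimulated genes held the ISRE letters (52.2%). A match describes the letters only, and binding was not measured here.

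The matches below are shown to set the interferon-type sites of Irf1, Irf2 and Irf8 beside their values, with the match in capitals and 15 bases or fewer on each side. They are at chr11:53769909-53769947, chr8:46739495-46739528 and chr8:120736172-120736210, all on the plus strand.
Irf1 GAS: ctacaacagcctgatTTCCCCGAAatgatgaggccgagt
Irf2 ISRE: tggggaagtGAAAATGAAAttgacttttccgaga
Irf8 GAS: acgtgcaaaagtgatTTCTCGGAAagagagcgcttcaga
The Irf1 and Irf8 matches start 90 and 171 bases before the start site and that of Irf2 241 bases before it. Not printed are another GAS match in the same Irf8 window, 153 bases before the start site, and the Irf2 GAS match, 224 bases before it. Irf1 and Irf8 have 2 windows each, of which 1 held the GAS letters.

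TATAAA letters were in 3 of the 11 windows, 1 each for Irf4, Irf7 and Irf8, and in 13.6% of all windows. They are at chr13:30749192-30749227 on the plus strand, chr7:141266433-141266468 on the minus strand and chr8:120736312-120736347 on the plus strand, and start 26, 29 and 31 bases before the start site.
Irf4: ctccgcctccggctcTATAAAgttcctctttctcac
Irf7: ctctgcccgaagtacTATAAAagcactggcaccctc
Irf8: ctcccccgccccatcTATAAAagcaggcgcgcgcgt
These were also the 3 factors with the widest gaps between the GM-CSF arrays. Replicate 2 minus replicate 1 was -1.15 for Irf4, 0.88 for Irf7 and 0.48 for Irf8, so Irf4 went in the opposite direction. Of the 2 windows of Irf8, 1 held the letters. The pattern was noticed after the values were seen and is given without a test.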

How the data were processed

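Total RNA (300 ng per sample) was amplified from random primers, labelled with biotin and measured on Affymetrix arrays of 1 colour (per the labels' protocols). Each deposited number is an RMA value on the log2 scale, 1 per probe set. The submitters' processing notes name RMA and Affymetrix Expression Console, version 1.1. RMA gives all arrays a like distribution and compresses differences of dim genes. Detection calls and scan dates were not used here, so batches were not tested. The number of arrays limits the precision.

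Of 35556 probe sets, 21789 had exactly 1 gene symbol, 1621 several and 12146 none in the platform annotation. Symbols were checked by gene ID against RefSeq (21698 matched, 0 updated). Each gene was represented by its probe set of highest mean. Genes with at least 2 of 4 arrays above the 30th percentile entered, 14995 in all. The test was limma's (version 3.58.1, under R 4.3.3; functions lmFit and eBayes, with 2 residual and 4.17 prior degrees of freedom, two-sided, with Benjamini-Hochberg adjustment). Tested on simulated data of 14995 genes, with 50 changed at each size, the fit found 2% of genes set 0.5 apart (log2). It found 82% of those 1 apart and 98% of those 2 apart, and called 0.0338% of unchanged genes. The measured arrays had 1605 called genes and unequal spread (SD of the replicate difference, 0.325 for GM-CSF and 0.18 for M-CSF). Whether the rates hold for these arrays was not tested. Tables and plots used Python 3.11.15, pandas 2.3.3 and matplotlib 3.10.9.

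The factors, the 7 gene lists, the 8 marker lists, the background reference and the tests were chosen with earlier results of these data known. Named genes are the 8 factors, in each list the 3 or fewer genes that differ most in absolute value, the 3 genes nearest in pattern to a called factor, sort-gate genes and defining markers. Other genes of the lists are named to account for every call or for their known tie to a factor. These, with Eif2s3y, Xist, Il10, Tnf, Stat2, Spi1, Irf2bp2, Kdm6b, and Mgl2, were chosen after their values were seen. Alternatives were no filter, a 50th percentile filter, quantile normalization, centring on array medians, probe set means, trended and robust variances, array weights, a replicate block, an adjusted p of 0.01, and leaving out each array in turn with the tested genes kept.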

Additional observations from a re-analysis of the deposited data

How the results depend on the processing

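At an adjusted p of 0.01 (limma), 438 genes were higher and 223 lower over all genes, against 926 and 679 at 0.05, with 2 called interferon, receptor and JAK-STAT genes, 1 interferon-stimulated gene and 3 Irf4-associated genes. With no filter, 1 interferon-stimulated gene was called. With the filter at the 50th percentile, 2 factors were higher (Irf4 and Irf2), and 2 partner genes were called, as they were with arrays centred on their medians and with trended and robust variances. Array weights gave 4 partner genes.

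Samples with the same replicate number did not deviate together (correlation of replicate differences between the groups, 0.065 across genes), and the labels do not pair them. With the replicate block, 3 partner genes and 2 sensor genes were called, and Irf4 kept its call with the block (adjusted p = 0.0067, limma).

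Leaving out each array in turn gave from 168 to 1683 genes higher and from 65 to 1522 lower. Factors higher ran from 0 to 3. Called genes ran from 0 to 5 among partners, 0 to 9 among sensors, 1 to 5 among interferon and JAK-STAT genes, 0 to 16 among interferon-stimulated genes, 2 to 12 among Irf1 or Irf8 genes, 4 to 7 among Irf5 genes and 1 to 10 among Irf4 genes. The fits without a GM-CSF array take their spread from the closer M-CSF pair, so their larger counts are no support for the calls. Where 1 array remained, its group took its spread from the other group.

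The direction reversed for Irf7 without GM-CSF replicate 2 (-0.11, against 0.77 without replicate 1) and for Irf8 without GM-CSF replicate 1 (0.21, against -0.27 without replicate 2) and without M-CSF replicate 1 (0.0031). It reversed for Irf9 after quantile normalization (0.013), without GM-CSF replicate 1 (0.15, against -0.165 without replicate 2) and without M-CSF replicate 1 (0.04), and for Zbp1 without GM-CSF replicate 2 (-0.12, against 0.81 without replicate 1). The cause was not tested. The direction of Irf1, Irf2, Irf3, Irf4 and Irf5 held under each alternative run.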
